A study of Mus musculus with 15 samples.

Results

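Mouse muscle satellite cells that had been exposed to 0.05 mM adenosine for 24 hours were compared with cells that had received DMSO for the same time, both in the first of the study's 2 batches. The comparison uses 6 of the 15 libraries, 3 with adenosine (replicates 1 to 3) and 3 with DMSO (replicates 1 to 3), and the members were taken by treatment and batch as the labels give them. All 6 came from satellite cells of hindlimb muscle, grown in F10 medium with horse serum, so the adenosine was added on top of a growth medium that the controls had as well. DMSO is a solvent that served as the control. The other 9 libraries form batch 2, with DMSO, a higher dose of adenosine (0.1 mM) or AMP, and they enter below only where the effect is compared between batches. The labels do not say whether the replicates of batch 1 came from separate animals or cultures, nor which mouse strain was used for batch 1, so a p-value here speaks only of variation among these libraries, and that variation may be technical. Complementary DNA was made and amplified from total RNA by the Smart-seq2 protocol and cut with the Tn5 transposase.

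Satellite cells are the stem cells of skeletal muscle. They carry the transcription factor PAX7, lie quiet beneath the basal lamina of the fibre, and on injury enter the cell cycle, express MYF5 and MYOD1, divide as myoblasts and then fuse into fibres. Adenosine is a nucleoside that signals from outside the cell through receptors coupled to G proteins, which raise or lower cyclic AMP, and it also enters cells through nucleoside transporters, where adenosine kinase turns it into AMP and adenosine deaminase into inosine. Inside the cell it is also a product of S-adenosylhomocysteine breakdown, so it touches methylation as well as the purine pool.

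The libraries held between 14683346 and 20799588 counts assigned to genes. Levels are given in CPM, a gene's counts scaled to a common library total. There is no spike-in, so they are shares of each library's RNA. In bulk RNA, fewer cells of a type and less RNA per cell cannot be told apart. Fold changes are fitted with scaling factors that set the bulk of genes to a common level (TMM), and adjusted p-values come from edgeR's quasi-likelihood test with Benjamini-Hochberg adjustment over all 13842 genes tested. A gene is called, and is said to have risen or fallen, at an adjusted p under 0.05. Where a gene goes from one set of CPM values to another, these are DMSO replicates 1 to 3 and then adenosine replicates 1 to 3. The value after ± or SE is an approximate standard error of the fitted log2 fold change. It is the size of that change divided by the square root of the test's F statistic. The scaling matters: with library totals alone the median log2 fold change of all tested genes moves from 0.03 to 0.22, so levels in CPM lean upward with adenosine by about that difference, and every log2 fold change is relative to the TMM scale unless stated.

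Adenosine moved a large share of the transcriptome. Of the 13842 genes, 5420 were called (39.2%), 2714 higher (19.6%) and 2706 lower (19.5%), and 1278 of the higher and 1392 of the lower genes changed over 2-fold. For 7420 genes (53.6%) the 3 adenosine libraries lay wholly above or wholly below the 3 DMSO libraries in CPM. Under library totals the number called was 5967, and the split became 4012 higher and 1955 lower, or 67.2% higher in place of 50.1%. In the authors' deposited table, 5418 of 13841 of these genes had an adjusted p under 0.05, and 5288 were called in the same direction both there and here. These shares are the background against which the counts of each gene group below are read.

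The libraries carried the markers of the labelled cell type. The summed level of 10 satellite cell markers was 6986, 6766 and 6922 CPM with DMSO and 5229, 4871 and 4324 CPM with adenosine, and all 10 were expressed highly enough to be tested. Pax7 was at 57.2, 64.9 and 55.2 with DMSO and 63.9, 62.4 and 55.6 CPM with adenosine, and the groups overlapped. Pax7 differed by -0.16 log2 units (SE 0.13, adjusted p = 0.367) and was not called. Markers of other cells of muscle summed to less than those of satellite cells, and some moved with the treatment. The summed leukocyte markers were 6.97, 8.11 and 7.16 CPM with DMSO and 30.1, 19.7 and 20.4 CPM with adenosine, mostly from Cd68 and Cd14. Of that list of 12 only 3 were tested, and Cd68 and the B cell gene Cd79a rose while Cd14, which overlapped between groups, was not called. Within it, Cd3e and Tyrobp had no count in any library. Endothelial markers summed to 11.7, 12 and 13 CPM with DMSO and 30.4, 24.1 and 28.1 CPM with adenosine, chiefly through Tek, which encodes the angiopoietin receptor and was the 1 member of 6 tested that rose. Summed markers of smooth muscle and pericytes went the other way, from 70.0, 83.5 and 49.3 CPM to 24.3, 19.5 and 13.1 CPM, with 3 falls and 1 rise among 5 tested. Most of that sum was Notch3, which went from 63.5, 77.2 and 43.6 CPM to 14.6, 14.6 and 7.93 CPM. Kcnj8 had no count in any adenosine library. Cnn1 lay higher in every adenosine library, from 0, 0.266 and 0.185 CPM to 2.52, 2.42 and 1.065 CPM. Pdgfrb overlapped between groups, and Rgs5, Myh11 and Abcc9 stayed below 1 CPM. Markers of fibro-adipogenic progenitors summed to 448, 377 and 345 CPM with DMSO and 398, 350.1 and 316 CPM with adenosine, with 1 fall among 5 tested. Most of that sum was Cd34 and Gsn, while Pdgfra was at 0.24, 0 and 0.802 with DMSO and 1.02, 1.305 and 0.651 CPM with adenosine. Markers of Schwann and glial cells summed to 135, 120.4 and 73.8 against 62.3, 85.6 and 40.8 CPM, mostly from Pmp22, with 1 rise and 1 fall among 4 tested. Those of the adult fibre summed to 163, 126 and 94.8 against 126, 118 and 101.3 CPM, with 1 rise and 2 falls among 4 tested. That sum joins opposite changes. Eno3 went from 119, 98.5 and 60.8 CPM to 32.3, 44.9 and 25.6 CPM, and Acta1 was also lower in every adenosine library. Mylk2 went from 5.43, 9.70 and 20.1 CPM to 82.1, 61.6 and 74.3 CPM. Adipocyte markers stayed below 5 CPM in sum, and the 1 tested was not called. The part that other cell types have in the results below was not tested.

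**Figure D1:**
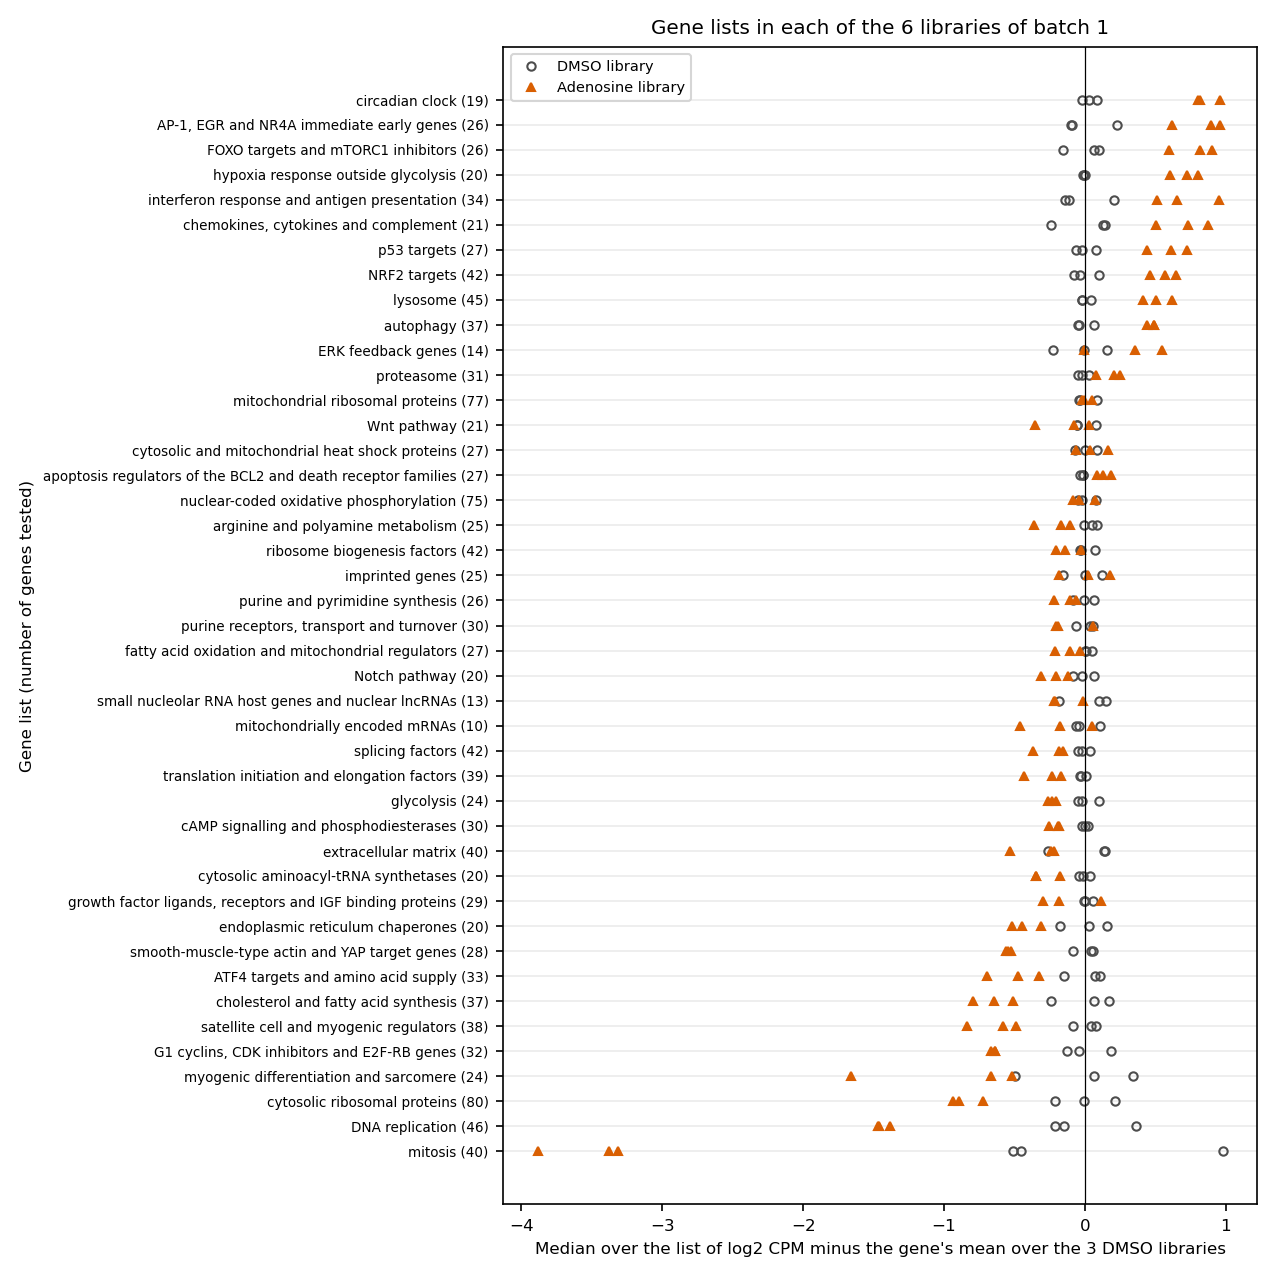
Median level of selected gene lists in each of the 6 libraries, as log2 CPM relative to each gene's mean over the 3 DMSO libraries (x axis), with 1 row a list (y axis, number of genes tested in brackets) and 1 point a library, coloured by treatment. The mitosis list sits at 0.979, -0.454 and -0.51 in the DMSO libraries and at -3.316, -3.376 and -3.886 in the adenosine libraries, so DMSO replicate 1 stands above the other controls and all 3 adenosine libraries stand far below every control.

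DMSO replicate 1 stood apart from the other controls in genes of the dividing cell. The median level of 40 genes of mitosis, on a log2 scale relative to the DMSO mean, was 0.979 in that library against -0.454 and -0.51 in the other DMSO libraries. The lists of cycling genes, and the leading genes of the cycle, are therefore given with and without it. Replicates of a group differed from each other by more than counting noise, with a chi-square per degree of freedom between 14.8 and 36.0 over the pairs, so no pair held matching counts.

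The 10 largest rises, counted where either group averaged 10 CPM or more, held genes of several kinds. Arg2 (chromosome 12, 79130777 to 79156301, GRCm38), which encodes the mitochondrial arginase that splits arginine into ornithine and urea, was at 0.481, 0.199 and 0.74 with DMSO and 45.4, 55.4 and 102 CPM with adenosine. Arg2 rose by 6.92 log2 units (SE 0.41, adjusted p = 3.53e-07). Its adenosine libraries were all far above the DMSO libraries, with replicate 3 the highest. Gsta1, a glutathione S-transferase, went from 0, 0.199 and 0.0617 CPM to 17.2, 9.01 and 13.3 CPM. Gsta1 rose by 7.08 log2 units (SE 0.61, adjusted p = 4.05e-06). Gsta1 has a near-identical neighbour, Gsta2, so reads could be shared between the copies and its size is uncertain. Pcdh17 (chromosome 14, 84443563 to 84537060), a protocadherin of cell adhesion, rose from 0.385, 0.332 and 1.17 CPM to 40.3, 24.9 and 22.1 CPM. Pcdh17 rose by 5.34 log2 units (SE 0.43, adjusted p = 2.50e-06). Aloxe3, a lipoxygenase best known from the skin barrier, reached 17.4, 9.07 and 10.2 CPM from 0.288, 0 and 0.802 CPM. Tex14, known from the intercellular bridges of germ cells, reached 15.1, 15.4 and 22.6 CPM from 0.0481, 1.86 and 0.555 CPM. Ppl, which encodes the cytolinker periplakin, went from 3.37, 6.05 and 3.52 CPM to 72.7, 65.8 and 80.5 CPM and rose by 3.9 ± 0.23 log2 units. The remaining rises were Arrdc4, Fosb, Rian and Meg3, described with their groups below. These 10, the 10 largest falls and the leading changed members of each list below were chosen among genes whose groups do not overlap, so their separation is a description.

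Of the 10 largest falls, 8 were genes of chromosome segregation and cell division, whose products are made anew in each cycle. Kif4 (chromosome X, 100625737 to 100727214), a chromokinesin that compacts mitotic chromosomes, was at 30.6, 10.04 and 5.12 with DMSO and 0.136, 0.124 and 0.178 CPM with adenosine. Kif4 fell by 6.82 log2 units (SE 0.75, adjusted p = 2.40e-05). Bub1, a kinase of the spindle checkpoint, was at 35.7, 8.97 and 12.9 with DMSO and 0.0681, 0.684 and 0.0592 CPM with adenosine. Nuf2, a part of the kinetochore's microtubule clamp, was at 28.5, 11.7 and 11 with DMSO and 0.341, 0.311 and 0.355 CPM with adenosine. In Kif4, Bub1 and Nuf2 the highest adenosine library lay below 1 CPM while the lowest DMSO library lay above 5 CPM. Pbk, a mitotic kinase, fell by 5.71, Aurkb by 5.99, Mki67 by 6.3, Ccna2 by 5.63 and Top2a by 5.65 log2 units. Without DMSO replicate 1 all 8 were called, and the log2 fold change was -5.8 for Kif4, -5.49 for Bub1, -5.24 for Nuf2, -5.08 for Pbk, -5.19 for Aurkb, -5.32 for Mki67, -4.81 for Ccna2 and -5.02 for Top2a. Outside division, H19 (chromosome 7, 142575529 to 142578143), an imprinted long non-coding RNA abundant in embryonic and regenerating muscle, went from 127, 67.7 and 34.5 CPM to 1.16, 1.55 and 0.237 CPM and fell by 6.48 ± 0.54 log2 units. C1qtnf3 (chromosome 15, 10952332 to 10980150), which encodes a secreted protein of the C1q and TNF-related family, went from 217, 173 and 79.4 CPM to 2.52, 4.54 and 0.296 CPM and fell by 6.2 ± 0.54 log2 units. Both H19 and C1qtnf3 varied among the controls, with DMSO replicate 3 the lowest, yet that library still lay above every adenosine library by more than 10-fold.

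**Figure D2:**
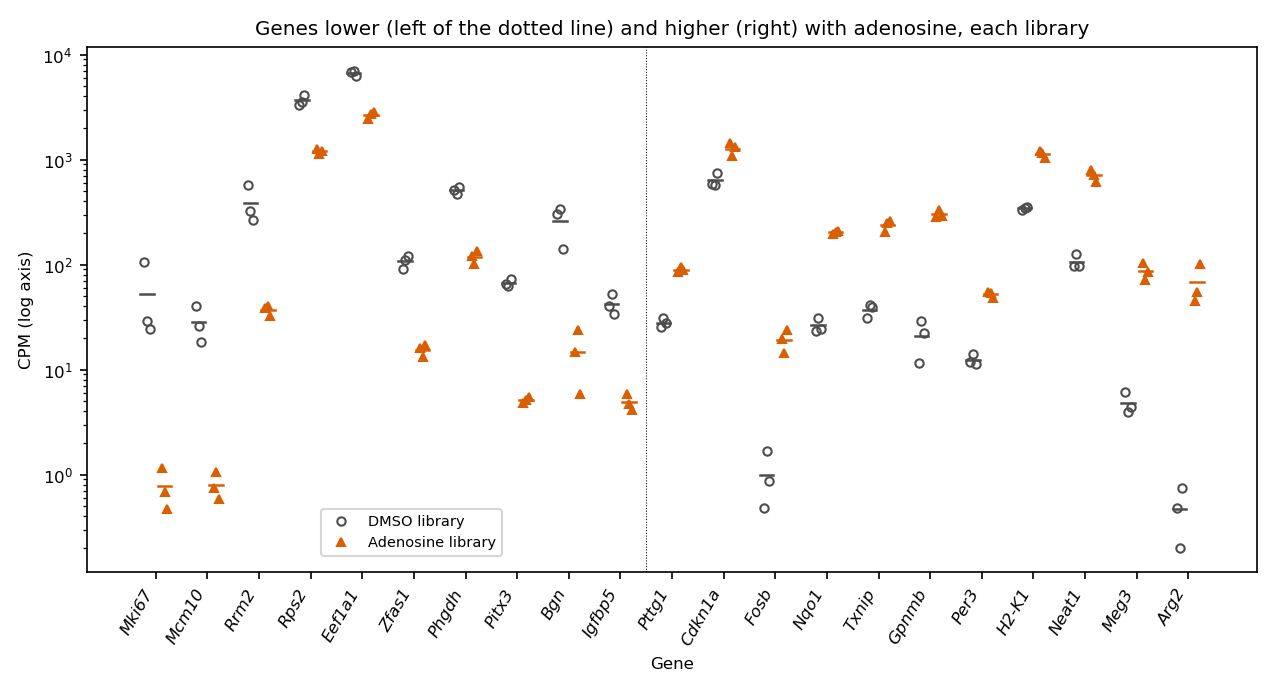
Level of selected genes in each library, in CPM on a log axis (y axis), 1 column a gene (x axis) and 1 point a library, with open circles for DMSO and triangles for adenosine. Genes left of the dotted line were lower and those right of it higher with adenosine, and the 3 points of each treatment separate for each gene drawn, and short lines mark the means.

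Nearly every gene of the mitosis list fell. Of 40 members, 39 fell and 1 rose, with a median log2 fold change of -3.83 against 0.03 over all tested genes. Without DMSO replicate 1 the median was -3.08, with 39 fallen and 1 risen. With limma on log2(FPKM + 1), a scale that understates the change of low genes, the median was -1.9 with the same counts. Ccnb1, the cyclin that drives entry into mitosis, was at 66.5, 12 and 12.5 with DMSO and 1.02, 1.93 and 0.0592 CPM with adenosine. Ccnb1 fell by 5.12 log2 units (SE 0.8, adjusted p = 3.21e-04). Plk1, a kinase of centrosomes and kinetochores, went from 44.7, 14.2 and 15 CPM to 1.63, 0.746 and 0.355 CPM and fell by 4.97 ± 0.56 log2 units. Adenosine replicate 3 was the lowest library for both and DMSO replicate 1 the highest, and without that control Ccnb1 fell by 3.81 and Plk1 fell by 4.21. The exception, Pttg1, securin, the inhibitor of separase, went from 25.5, 31 and 27.7 CPM to 85.9, 94.3 and 89.2 CPM and rose by 1.48 ± 0.13 log2 units, and its groups did not overlap.

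Genes of DNA replication fell with a smaller median. Of 46 members 43 fell, none rose and 3 were not called, at a median of -1.47, or -1.27 with 39 fallen without DMSO replicate 1. The list spanned a wide range. Mcm10, which helps the replicative helicase start, was at 40.8, 26.1 and 18.4 with DMSO and 0.749, 1.06 and 0.592 CPM with adenosine. Mcm10 fell by 5.33 log2 units (SE 0.36, adjusted p = 8.08e-07). Clspn, the checkpoint mediator claspin, went from 26.8, 16.1 and 16 CPM to 0.477, 1.37 and 0.0592 CPM and fell by 5.14 ± 0.55 log2 units. Cdc6, a licensing factor, went from 72.5, 55.1 and 42 CPM to 4.63, 0.932 and 0.71 CPM and fell by 4.98 ± 0.49 log2 units. Rrm2, the regulated subunit of ribonucleotide reductase, went from 569, 324 and 264 CPM to 38.6, 40.02 and 32.4 CPM and fell by 3.57 ± 0.24 log2 units. Subunits of the helicase itself had smaller fitted changes. Mcm5 was at 276, 189.9 and 176 with DMSO and 66.7, 68.9 and 68 CPM with adenosine and fell by 1.85 log2 units. Mcm2 was at 314, 267 and 296 with DMSO and 193, 192 and 191 CPM with adenosine and fell by 0.8 log2 units. Without DMSO replicate 1 Mcm10 fell by 4.98, Clspn by 4.85, Cdc6 by 4.76 and Rrm2 by 3.19 log2 units. In the same fit Mcm5 fell by 1.63 and Mcm2 by 0.75. Pcna, the sliding clamp, was at 445, 339 and 321 with DMSO and 308, 354 and 347 CPM with adenosine. Pcna differed by -0.33 log2 units (SE 0.13, adjusted p = 0.069) and was not called, and its groups overlapped. Without DMSO replicate 3 it was called, at -0.40, and without DMSO replicate 1 it was not, at -0.17 (adjusted p = 0.341). Within 1 process the fitted differences ran from over 5 log2 units to one that was not called.

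Promoters of these genes were read for 2 short motifs tied to the cell cycle. As background, the cell cycle genes homology region (CHR) is bound by the MuvB complex, which holds genes of mitosis silent in resting cells and turns them on in dividing ones, and E2F sites serve the genes of DNA replication. In windows from 250 bases before to 50 bases after the start, taken from RefSeq on GRCm38.p6, TTTGAA or TTCGAA on either strand was found in 28 of the 35 mitosis genes that had a window (80%), against 19.4% of all 27025 promoters and 13.5% of those of tested genes. TTTGGCGC, TTTCGCGC, TTTCCCGC or TTTGCCGC on either strand was found in 14 of 38 replication genes (36.8%), against 2.3% of all promoters and 4.3% of those of tested genes. Among all tested genes with a window, the CHR letters stood in 18.9% of the 990 that fell over 2-fold and 12.9% of the 839 that rose over 2-fold, and the E2F letters in 6.8% and 2.7%. Within the mitosis list the median log2 fold change was -4.07 in members with a CHR match and -3.16 in the 7 without. Within the replication list it was -1.23 in members with an E2F match and -1.56 in the 24 without, nearer 0 in members with a match. A match describes letters in a window and does not show a bound site. The 250 bases before the start are shown for 1 gene of each list because they carry these letters in pairs, with the matches in capitals. Mki67 (chr7:135716380-135716629, minus strand, 5′ to 3′ along the gene) has 2 CHR matches, 116 and 98 bases before the start. Mcm5 (chr8:75109259-75109508, plus strand) has 2 E2F matches that overlap, 153 and 149 bases before the start.
Mki67: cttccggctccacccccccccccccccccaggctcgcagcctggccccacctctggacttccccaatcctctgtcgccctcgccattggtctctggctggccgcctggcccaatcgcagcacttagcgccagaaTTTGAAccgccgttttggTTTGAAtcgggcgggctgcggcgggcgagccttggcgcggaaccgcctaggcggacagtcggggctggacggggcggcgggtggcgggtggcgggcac
Mcm5: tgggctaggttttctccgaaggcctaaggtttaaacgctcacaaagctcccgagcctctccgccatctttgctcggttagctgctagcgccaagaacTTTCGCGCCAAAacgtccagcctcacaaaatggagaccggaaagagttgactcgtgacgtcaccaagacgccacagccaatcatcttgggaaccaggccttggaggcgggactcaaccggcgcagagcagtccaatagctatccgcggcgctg

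The regulators of the step from G1 to DNA synthesis were mixed. Of 32 members, 5 rose, 16 fell and 11 were not called, at a median of -0.7. Without DMSO replicate 1 the counts were 4 and 16 and the median -0.56, and Ccne1 fell by 3.41 and E2f8 fell by 4.8. At a mean of 10 CPM or more the median was -0.45. Ccne1, cyclin E1, was at 41.1, 20.8 and 19.9 with DMSO and 1.43, 3.11 and 2.01 CPM with adenosine. Ccne1 fell by 3.83 log2 units (SE 0.36, adjusted p = 6.78e-06). E2f8, a late E2F repressor, went from 19.7, 7.44 and 7.4 CPM to 0.477, 0.373 and 0.0592 CPM and fell by 5.44 ± 0.6 log2 units. Ccnd1, cyclin D1, which couples growth factors to the cycle, went from 478, 474 and 578 CPM to 341, 292 and 238 CPM and fell by 1.01 ± 0.15 log2 units. Inhibitors of cyclin-dependent kinases were among the rises. Cdkn1a, p21, went from 589.7, 568 and 749.5 CPM to 1432, 1082 and 1309 CPM and rose by 0.81 ± 0.15 log2 units. Cdkn1c, p57, an imprinted gene, went from 0.673, 0 and 0.864 CPM to 6.2, 5.41 and 8.23 CPM and rose by 3.44 ± 0.67 log2 units. Mxd4, which opposes MYC on DNA, rose as well, from 17.7, 22.2 and 21.3 CPM to 68.7, 59.5 and 49.7 CPM.

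Targets of p53, the stress-activated transcription factor, were more often higher. Of 27 members, 15 rose, 2 fell and 10 were not called, at a median of 0.63. Pmaip1, which encodes the pro-apoptotic BH3 protein NOXA, was at 13.8, 8.77 and 10.3 with DMSO and 41.7, 45.3 and 52.9 CPM with adenosine. Pmaip1 rose by 1.89 log2 units (SE 0.2, adjusted p = 1.82e-05). Gdf15, a stress cytokine, went from 5.34, 6.98 and 12.2 CPM to 32.1, 31.5 and 37.3 CPM and rose by 1.85 ± 0.28 log2 units. Btg2, an anti-proliferative factor, went from 60.5, 58.5 and 65.9 CPM to 214, 189.9 and 231 CPM and rose by 1.58 ± 0.13 log2 units. Mdm2, the ubiquitin ligase that removes p53, went from 220.1, 205 and 252 CPM to 451, 491 and 501 CPM and rose by 0.9 ± 0.12 log2 units. Zmat3, an RNA-binding target and 1 of the 2 that fell, went from 131, 155 and 149 CPM to 103, 99.2 and 99.2 CPM and fell by 0.73 ± 0.12 log2 units. Sesn2, an inhibitor of mTORC1, was at 42.8, 61.9 and 65.1 with DMSO and 75.9, 54.1 and 66 CPM with adenosine and was not called. The regulators of apoptosis were spread over both directions. Of 27 members of the BCL2 and death receptor families, 7 rose, 3 fell and 17 were not called. The 37% called is near the 39.2% of all tested genes. Bcl2l11, the BH3 protein BIM, went from 7.21, 9.97 and 8.27 CPM to 44.5, 33.7 and 48.5 CPM and rose by 2.13 ± 0.21 log2 units. The protective Bcl2l1 went from 102, 98.5 and 107 CPM to 224, 211 and 203 CPM and rose by 0.86 ± 0.11 log2 units. Bok, a relative of BAX, fell from 119, 85.5 and 86 CPM to 34.9, 41.4 and 22.4 CPM.

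**Figure D3:**
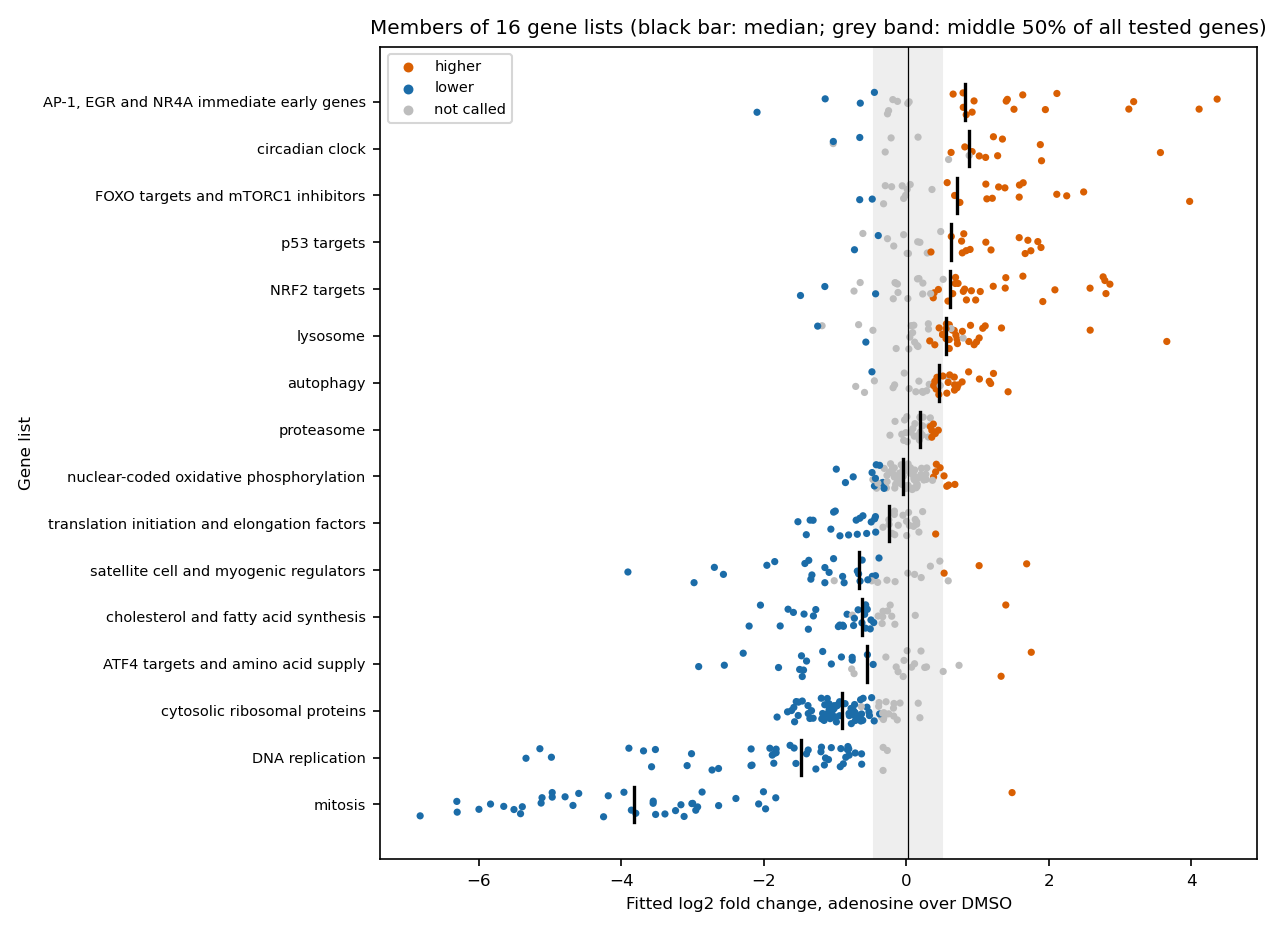
Fitted log2 fold change of adenosine over DMSO (x axis) of every tested member of 16 gene lists (y axis), 1 point a gene; black bars mark the list medians and the grey band the middle 50% of all tested genes. The mitosis median lies at -3.83, that of cytosolic ribosomal proteins at -0.9, and those of the lysosome and NRF2 lists at 0.56 and 0.62.

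The protein-making machinery was lowered in its cytosolic part. Of 80 cytosolic ribosomal protein genes 63 fell and none rose, at a median of -0.9, and under library totals 59 fell and 1 rose. Rps2 was at 3305, 3530.4 and 4168 with DMSO and 1258, 1122 and 1209.5 CPM with adenosine. Rps2 fell by 1.81 log2 units (SE 0.12, adjusted p = 8.61e-07). Rpl7a went from 1017, 1137 and 1222 CPM to 421, 394 and 405 CPM and fell by 1.67 ± 0.12 log2 units. Rpl13a went from 1367, 1558 and 1988 CPM to 666, 570.1 and 610.1 CPM and fell by 1.61 ± 0.15 log2 units. Rplp0, the base of the ribosomal stalk, was at 3808, 4103 and 4802 with DMSO and 4995, 4280.2 and 4433 CPM with adenosine. Rplp0 differed by -0.09 log2 units (SE 0.12, adjusted p = 0.606) and was not called, and its groups overlapped. Ribosomal protein genes have many processed pseudogenes, which share reads with them. Of 403 processed pseudogenes tested, 67 fell and 17 rose.

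Elongation factors whose mRNAs, like those of ribosomal proteins, begin with a terminal oligopyrimidine tract were among the largest falls of the translation list. Of 39 initiation and elongation factors, 1 rose, 18 fell and 20 were not called, at a median of -0.24, and 6 rose under library totals. Eef1a1, which brings aminoacyl-tRNA to the ribosome, was at 6806, 7009 and 6294 with DMSO and 2429, 2731 and 2869 CPM with adenosine. Eef1a1 fell by 1.52 log2 units (SE 0.11, adjusted p = 9.33e-07). Eef1g, its exchange factor subunit, went from 1602, 1683 and 1606 CPM to 718, 681 and 718 CPM and fell by 1.4 ± 0.1 log2 units. Eef2, the translocase, went from 2192, 2198 and 2669 CPM to 1197, 1003 and 975 CPM and fell by 1.35 ± 0.13 log2 units. Pabpc1, the poly(A)-binding protein, went from 931, 939 and 978 CPM to 424, 409 and 485 CPM and fell by 1.31 ± 0.11 log2 units. Eif4a1, the cap helicase, was at 1609, 1544 and 1494 with DMSO and 1279, 1586 and 1778 CPM with adenosine and was not called.

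Host genes of small nucleolar RNAs, which carry the guides for ribosomal RNA modification in their introns, moved in the same direction as the ribosomal proteins in several cases. Zfas1 was at 90.7, 110.1 and 122 with DMSO and 16.1, 13.2 and 17 CPM with adenosine. Zfas1 fell by 2.99 log2 units (SE 0.17, adjusted p = 2.98e-07). Snhg5 went from 67.7, 75.6 and 81.3 CPM to 21.8, 19.9 and 19.2 CPM and fell by 2.08 ± 0.15 log2 units. Gas5 went from 376, 462 and 382 CPM to 101, 117 and 125 CPM and fell by 2.03 ± 0.13 log2 units. Every adenosine library lay far below every DMSO library in all 3. The nuclear paraspeckle RNA Neat1, in the same list, went from 96.4, 127 and 97.3 CPM to 802, 709 and 618 CPM and rose by 2.54 ± 0.15 log2 units. Over the 13 tested members of that list, 3 rose, 6 fell and 4 were not called, and the median was -0.15. It became 0.04 under library totals and -0.52 at a mean of 10 CPM or more, and lay between -0.26 without DMSO replicate 1 and -0.06 without DMSO replicate 2.

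Factors that build ribosomes changed little by comparison. Of 42, 2 rose, 12 fell and 28 were not called, at a median of -0.11 (33.3% called, against 39.2% of all genes). Under library totals the counts were 7 higher and 6 lower at a median of 0.09. With 1 library left out the median lay between -0.18 without adenosine replicate 3 and -0.03 without DMSO replicate 3. Without adenosine replicate 1, 4 rose. Npm1, nucleophosmin, was at 2481, 2294 and 2282 with DMSO and 866, 1322 and 1338 CPM with adenosine. Npm1 fell by 1.2 log2 units (SE 0.15, adjusted p = 6.20e-05). Ncl, nucleolin, went from 1499, 1451 and 1565 CPM to 1179, 1189.6 and 1279 CPM and fell by 0.5 log2 units. Fbl, the methyltransferase fibrillarin, was at 332, 322 and 444 with DMSO and 432, 367 and 376 CPM with adenosine and was not called. Aminoacyl-tRNA synthetases of the cytosol held 8 falls and no rise among 20 (40% called), with 3 falls under library totals and 5 without DMSO replicate 2. Lars, for leucine, went from 236, 286 and 226 CPM to 143, 184 and 177 CPM and fell by 0.77 ± 0.13 log2 units. Vars, for valine, went from 564, 449 and 552 CPM to 380.2, 343 and 366 CPM and fell by 0.72 ± 0.12 log2 units. Splicing factors held 16 falls and 2 rises among 42, a balance that turned to 8 and 10 under library totals, so no direction is given for them. The rises numbered 4 without adenosine replicate 1 and 0 without adenosine replicate 3.

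The balance of rises and falls in mitochondrial groups, and the number of rises in the proteasome, depended on the scaling. Among 77 mitochondrial ribosomal proteins 12 rose and 11 fell (29.9% called, against 39.2% of all genes). Under library totals the counts were 22 and 6, and 7 fell without DMSO replicate 3 or without adenosine replicate 3. Among 75 nuclear-coded subunits of oxidative phosphorylation 8 rose and 11 fell (25.3% called), against 24 and 3 under library totals. Leaving out 1 library at a time gave 4 to 8 rises and 5 to 14 falls, and each library other than adenosine replicate 1 moved at least 1 of these counts by over 1.5 times. Single subunits of complex I stood on both sides. Ndufb10 was at 99.5, 97.2 and 90.6 with DMSO and 163, 188 and 177 CPM with adenosine and rose by 0.68 log2 units. Ndufs8 was at 154, 136 and 157 with DMSO and 87.5, 100.05 and 71.6 CPM with adenosine and fell by 0.98 log2 units. For the proteasome 6 of 31 subunits rose and none fell. The 19.4% that rose is near the 19.6% called higher of all tested genes. Under library totals 20 rose, and leaving out 1 library left 1 to 8, the fewest without DMSO replicate 2. Psmd11, a lid subunit, was at 262, 269 and 245 with DMSO and 368, 389.6 and 457 CPM with adenosine. Psmd11 rose by 0.45 log2 units (SE 0.11, adjusted p = 0.00801). Of the 10 tested mRNAs of the mitochondrial genome, 2 fell and none rose (20% called), while 3 rose without adenosine replicate 1. The fallen mt-Cytb, apocytochrome b, went from 3216, 2747 and 2557 CPM to 1300.2, 1661 and 2024 CPM and fell by 0.97 ± 0.15 log2 units.

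Genes that ATF4 controls during amino acid shortage and other stresses parted into 2 directions. Of 33 tested members, 2 rose, 16 fell and 15 were not called, at a median of -0.55. Atf4 itself was at 495, 512 and 515 with DMSO and 304, 345 and 382 CPM with adenosine. Atf4 fell by 0.76 log2 units (SE 0.11, adjusted p = 2.51e-04). Several enzymes of amino acid supply fell. Phgdh, the first step of serine synthesis, went from 515, 469.7 and 543 CPM to 121, 102 and 136 CPM and fell by 2.29 ± 0.14 log2 units. Pycr1, the last step of proline synthesis, went from 38.2, 42.8 and 45.8 CPM to 15.1, 14.4 and 12.5 CPM and fell by 1.79 ± 0.17 log2 units. Asns, asparagine synthetase, went from 263, 316 and 253 CPM to 105, 126 and 129 CPM and fell by 1.4 ± 0.13 log2 units. Chac1, which degrades glutathione, went from 32.6, 35.3 and 41 CPM to 15, 12.9 and 16.3 CPM and fell by 1.5 ± 0.18 log2 units. The 2 that rose are the factors of prolonged stress. Ddit3, the transcription factor CHOP, went from 11.9, 18.9 and 23.1 CPM to 66.7, 61.3 and 79.6 CPM and rose by 1.75 ± 0.22 log2 units. Ppp1r15a, GADD34, which restores translation by removing the phosphate from eIF2, went from 56.5, 77 and 85.2 CPM to 218, 168 and 243 CPM and rose by 1.33 ± 0.18 log2 units.

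ATF4 pairs with C/EBP proteins on a composite element often called the amino acid response element. Its core letters TGATGNAA, on either strand of the same windows, were found in 8 of 28 members of the list with a window (28.6%), against 4.1% of all promoters and 2.2% of those of tested genes. Among all tested genes they stood in 2.9% of those that fell over 2-fold and 2.7% of those that rose over 2-fold. The list's median was -1.08 in members with a match and -0.42 in the 20 without. The 250 bases before the start are shown for 2 fallen members that hold them, with the match in capitals. In Pycr1 (chr11:120643749-120643998, minus strand, 5′ to 3′ along the gene) it lies 103 bases before the start, and in Chac1 (chr2:119350992-119351241, plus strand) it lies on the opposite strand, 193 bases before the start.
Pycr1: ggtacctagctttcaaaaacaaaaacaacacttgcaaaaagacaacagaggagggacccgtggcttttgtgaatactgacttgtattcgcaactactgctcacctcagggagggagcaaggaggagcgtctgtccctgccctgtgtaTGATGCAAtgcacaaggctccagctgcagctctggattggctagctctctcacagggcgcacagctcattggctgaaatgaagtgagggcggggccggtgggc
Chac1: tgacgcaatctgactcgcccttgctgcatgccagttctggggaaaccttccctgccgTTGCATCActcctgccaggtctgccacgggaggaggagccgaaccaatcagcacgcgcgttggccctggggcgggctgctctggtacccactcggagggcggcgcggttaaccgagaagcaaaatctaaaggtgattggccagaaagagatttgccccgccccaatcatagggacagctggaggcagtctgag

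Chaperones were read as 2 lists. In the endoplasmic reticulum 10 of 20 genes fell and 1 rose, at a median of -0.39. Manf, a secreted stress-response protein, was at 164, 154 and 112 with DMSO and 51, 61.9 and 66.1 CPM with adenosine. Manf fell by 1.45 log2 units (SE 0.15, adjusted p = 1.91e-05). Hsp90b1, GRP94, went from 589, 488 and 356 CPM to 217, 249 and 265 CPM and fell by 1.16 ± 0.16 log2 units. Xbp1, the transcription factor of the unfolded protein response, went from 197, 233 and 159.9 CPM to 84, 90.4 and 97.8 CPM and fell by 1.31 ± 0.14 log2 units. Hspa5, BiP, was at 1184, 1139 and 985 with DMSO and 945, 1057 and 1153 CPM with adenosine and was not called. The 1 rise was in Dnajb9, a BiP cofactor, from 46.1, 37.9 and 37.6 CPM to 108, 119 and 145 CPM. In the cytosol and mitochondria 6 of 27 heat shock proteins rose and 4 fell (37% called, against 39.2% of all genes), with 12 rises under library totals. The inducible Hspa1a went from 7.55, 10.8 and 12.6 CPM to 93.8, 55.6 and 64.6 CPM and rose by 2.6 ± 0.24 log2 units, but it shares most of its sequence with Hspa1b, so its size is uncertain. The small heat shock protein Hspb1 went from 267, 296 and 323 CPM to 1237, 915 and 721 CPM and rose by 1.5 ± 0.18 log2 units. The constitutive Hspa8 went from 4134, 3904 and 3497 CPM to 2285, 2814 and 2893 CPM and fell by 0.72 ± 0.12 log2 units. The mitochondrial chaperonin Hspd1 went from 1217, 1097 and 1045 CPM to 671, 905 and 945 CPM and fell by 0.61 ± 0.13 log2 units.

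Lipid synthesis was lowered in most of its members. Of 37 genes of cholesterol and fatty acid synthesis, 1 rose, 26 fell and 10 were not called, at a median of -0.62. Elovl6, a fatty acid elongase, was at 104, 86.5 and 69.7 with DMSO and 23.2, 27 and 22 CPM with adenosine. Elovl6 fell by 2.05 log2 units (SE 0.16, adjusted p = 2.46e-06). Srebf2, the regulator of the cholesterol genes, went from 345, 347 and 355 CPM to 306, 269.6 and 231 CPM and fell by 0.57 ± 0.13 log2 units. The 1 that rose, Me1, malic enzyme, a source of NADPH and an NRF2 target, went from 33.8, 35 and 27.4 CPM to 85.7, 99.2 and 105 CPM and rose by 1.4 ± 0.14 log2 units.

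Glycolysis held 10 falls and 2 rises among 24 genes, with 5 falls and 4 rises under library totals. Pfkl, a subunit of phosphofructokinase, was at 104, 94 and 103 with DMSO and 63.4, 60.7 and 54.5 CPM with adenosine. Pfkl fell by 0.95 log2 units (SE 0.12, adjusted p = 9.55e-05). The muscle form Pfkm went from 18.8, 21.3 and 12.5 CPM to 4.97, 6.03 and 2.96 CPM and fell by 2.1 ± 0.3 log2 units. Ldha, lactate dehydrogenase A, went from 1761, 1536 and 1515 CPM to 1090.3, 1329.9 and 1279 CPM and fell by 0.58 ± 0.11 log2 units. Aldoa, aldolase, went from 1058, 1024 and 997 CPM to 2117, 2049 and 2063 CPM and rose by 0.82 ± 0.1 log2 units. Among 27 genes of fatty acid oxidation and mitochondrial regulators, 4 rose, 7 fell and 16 were not called (40.7% called, against 39.2% of all genes). The median turned from -0.14 to 0.06 under library totals. With 1 library left out it lay between -0.2 without adenosine replicate 3 and -0.08 without DMSO replicate 3. Acadvl, which begins the oxidation of very long chains, went from 54.8, 67.3 and 51.6 CPM to 119, 120.1 and 108 CPM and rose by 0.81 ± 0.13 log2 units. Ucp2, a mitochondrial carrier, went from 125, 142 and 73 CPM to 33.8, 47.4 and 21.1 CPM and fell by 1.93 ± 0.27 log2 units. Ppargc1b, a coactivator of mitochondrial genes, went from 10.6, 13 and 12.6 CPM to 4.7, 3.98 and 2.78 CPM and fell by 1.85 ± 0.28 log2 units.

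Genes of the lysosome and of autophagy, the pathways that break down cell contents, rose in large part. Of 45 lysosome genes, 27 rose, 2 fell and 16 were not called, at a median of 0.56, and of 37 autophagy genes, 21 rose, 1 fell and 15 were not called, at a median of 0.46. Gpnmb, a glycoprotein of lysosomes and of macrophages, was at 11.5, 29.2 and 22.5 with DMSO and 282, 330.3 and 293 CPM with adenosine. Gpnmb rose by 3.65 log2 units (SE 0.26, adjusted p = 9.79e-07). Cd68, a lysosomal membrane protein that also serves as a macrophage marker, went from 2.16, 1.06 and 2.34 CPM to 14.8, 11.1 and 12.7 CPM and rose by 2.58 ± 0.34 log2 units. The leukocyte marker Ptprc was too low to be tested, with 0, 0 and 1 counts with DMSO and 18, 3 and 7 with adenosine. Csf1r, the receptor that macrophages depend on, had 0 counts in each DMSO library and 1, 3 and 5 with adenosine. The part of leukocytes in these results was not tested. Lamp1, a main protein of the lysosomal membrane, went from 472, 480.1 and 465 CPM to 821, 837 and 807 CPM and rose by 0.6 ± 0.1 log2 units. Neu1, a sialidase, went from 13.5, 17.7 and 14.7 CPM to 57.6, 38.6 and 36.1 CPM and rose by 1.34 ± 0.21 log2 units. Glb1, beta-galactosidase, the enzyme behind a common stain for senescent cells, went from 16.6, 21.7 and 19.98 CPM to 10.1, 9.57 and 8.52 CPM and fell by 1.24 ± 0.21 log2 units. Among the autophagy genes, Map1lc3b, the LC3 protein of the autophagosome, went from 144, 158 and 153 CPM to 499, 438 and 462 CPM and rose by 1.43 ± 0.11 log2 units. Its relative Gabarapl1 went from 68.3, 64.3 and 78.3 CPM to 195, 166 and 203 CPM and rose by 1.22 ± 0.13 log2 units. The receptor Sqstm1, p62, went from 656, 827 and 936 CPM to 1488, 1479 and 1577 CPM and rose by 0.71 ± 0.13 log2 units.

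The letters CACGTG, the core of the element through which TFEB and TFE3 act on lysosome genes and a site for many other factors, were found in 12 of 36 lysosome genes with a window (33.3%), against 7.2% of all promoters and 10.5% of those of tested genes, and in 6.9% of genes that fell and 10% of genes that rose over 2-fold. The letters read the same on both strands. In the lysosome list the median log2 fold change was 0.557 in members with a match and 0.583 in the 24 without one. Tfeb itself was at 5.82, 4.19 and 2.41 with DMSO and 3.41, 1.62 and 1.24 CPM with adenosine. It was not called with all 6 libraries (-1.18) or without DMSO replicate 1 (-0.85), but was without DMSO replicate 3 (-1.44) and without adenosine replicate 1 (-1.76). Lamp1 (chr8:13158911-13159160, plus strand) is shown because it holds 4 copies between 61 and 15 bases before the start, in capitals.
Lamp1: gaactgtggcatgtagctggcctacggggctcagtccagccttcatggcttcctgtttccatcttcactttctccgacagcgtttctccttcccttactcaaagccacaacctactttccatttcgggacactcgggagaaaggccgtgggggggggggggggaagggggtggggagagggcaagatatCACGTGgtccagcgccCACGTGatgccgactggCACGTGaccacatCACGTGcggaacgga

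FOXO targets and inhibitors of the growth kinase mTORC1 rose in 15 of 26 members and fell in 2, at a median of 0.72. Arrdc4, an arrestin-like protein that limits glucose uptake, was at 3.65, 5.58 and 7.03 with DMSO and 80.6, 102 and 108 CPM with adenosine. Arrdc4 rose by 3.97 log2 units (SE 0.23, adjusted p = 3.53e-07). Its relative Txnip, which binds thioredoxin, went from 31, 40.9 and 39.2 CPM to 205, 248 and 261 CPM and rose by 2.49 ± 0.15 log2 units. Tob1, an anti-proliferative factor that recruits deadenylases to mRNA, went from 37.3, 41.6 and 33 CPM to 203, 194 and 212 CPM and rose by 2.25 ± 0.13 log2 units. Ddit4, REDD1, an inhibitor of mTORC1, went from 39.9, 45.6 and 49.8 CPM to 131, 105 and 99.3 CPM and rose by 1.12 ± 0.15 log2 units. Sesn1 was at 15.9, 15.2 and 12.8 with DMSO and 13.5, 17.4 and 18.1 CPM with adenosine and was not called. Tsc22d3, GILZ, a target of FOXO and glucocorticoids, fell from 55.3, 77.6 and 63 CPM to 46.6, 53.4 and 42.5 CPM.

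Targets of NRF2, the regulator of antioxidant and detoxifying enzymes, rose in 25 of 42 members and fell in 3, at a median of 0.62. Nqo1, a quinone reductase, was at 23.6, 30.9 and 24.6 with DMSO and 197, 204 and 211 CPM with adenosine. Nqo1 rose by 2.76 log2 units (SE 0.14, adjusted p = 1.55e-07), and the spread within each group was narrow. Mgst1, a membrane glutathione transferase, went from 13.2, 12.8 and 22.8 CPM to 127, 125 and 138 CPM and rose by 2.8 ± 0.21 log2 units. Sod3, the extracellular superoxide dismutase, went from 17.3, 26.4 and 28.5 CPM to 235, 203 and 159 CPM and rose by 2.86 ± 0.2 log2 units. Gclm, which sets the rate of glutathione synthesis, went from 134, 149 and 169.8 CPM to 274, 293 and 408 CPM and rose by 0.91 ± 0.16 log2 units. Hmox1, heme oxygenase, went from 201, 188 and 238 CPM to 453, 305 and 399.8 CPM and rose by 0.69 ± 0.16 log2 units. Members of the glutathione transferase families did not move as one. Gsta4 went from 5.87, 3.46 and 5.8 CPM to 41.1, 31.8 and 47.4 CPM and rose by 2.79 ± 0.25 log2 units. Gstt1 went from 81.8, 67.7 and 102 CPM to 37.5, 40.4 and 25.5 CPM and fell by 1.48 ± 0.2 log2 units. Gsta4, Gsta1 and Gsta2 lie next to each other on chromosome 9 and were all called higher.

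Immediate early genes, the first genes switched on by growth factors, calcium, cyclic AMP or stress, were higher after 24 hours in 16 of 26 members and lower in 4, at a median of 0.82. Fosb was at 0.481, 1.66 and 0.864 with DMSO and 19.8, 14.5 and 23.6 CPM with adenosine. Fosb rose by 4.11 log2 units (SE 0.4, adjusted p = 9.24e-06). Fos went from 6.54, 3.85 and 6.66 CPM to 17.6, 15.6 and 18.6 CPM and rose by 1.4 ± 0.26 log2 units. Atf3, a stress-induced repressor, went from 2.69, 2.73 and 3.21 CPM to 30.9, 25.7 and 33.7 CPM and rose by 3.19 ± 0.23 log2 units. Nr4a2, an orphan nuclear receptor that responds to cyclic AMP, was at 4.71, 1.86 and 4.69 with DMSO and 58.4, 23.1 and 32 CPM with adenosine and rose by 3.12 log2 units. Nr4a1, its relative, was at 8.17, 8.91 and 7.03 with DMSO and 38.2, 17.2 and 23 CPM with adenosine and rose by 1.51 log2 units. Adenosine replicate 1 was the highest for both. Egr1, driven by serum response factor, went from 256, 288 and 321 CPM to 169, 136 and 144 CPM and fell by 1.14 ± 0.13 log2 units.

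Feedback genes of the ERK kinases were split as well: of 14, 5 rose, 4 fell and 5 were not called. Among the phosphatases that switch ERK off, Dusp4 was at 2.6, 5.78 and 6.04 with DMSO and 38.2, 14.7 and 24.3 CPM with adenosine. Dusp4 rose by 2.24 log2 units (SE 0.38, adjusted p = 6.12e-04). Dusp6 went from 36.4, 32.5 and 37.6 CPM to 101, 81.1 and 115 CPM and rose by 1.28 ± 0.15 log2 units. Among the inhibitors that act at the receptor, Spry2 went from 107, 120.2 and 107 CPM to 66.5, 74.3 and 90.4 CPM and fell by 0.73 ± 0.13 log2 units. Errfi1, which blocks the EGF receptor, went from 1034, 973 and 951 CPM to 656, 659.6 and 622 CPM and fell by 0.81 ± 0.1 log2 units. Of 29 growth factor ligands, receptors and IGF binding proteins, 7 rose, 11 fell and 11 were not called. Under library totals 7 fell, and 4 rose without adenosine replicate 1 or without adenosine replicate 3. Hbegf, a ligand of the EGF receptor, went from 17.4, 10.8 and 23.9 CPM to 142, 109.8 and 131 CPM and rose by 2.68 ± 0.24 log2 units. The receptor gene Egfr went from 159, 174 and 183 CPM to 125, 138 and 144 CPM and fell by 0.54 ± 0.12 log2 units. Igfbp5, a binding protein of insulin-like growth factors, went from 40.3, 53.1 and 33.7 CPM to 5.86, 4.72 and 4.14 CPM and fell by 3.3 ± 0.23 log2 units. Igfbp3, of the same family, went from 156, 93 and 133 CPM to 19.9, 21.6 and 19.2 CPM and fell by 2.85 ± 0.19 log2 units. Fgfr4, a receptor for fibroblast growth factors, went from 156, 173 and 117 CPM to 61, 64 and 29.8 CPM and fell by 1.72 ± 0.24 log2 units.

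Of 20 genes of the response to low oxygen outside glycolysis, 12 rose, 4 fell and 4 were not called, at a median of 0.7. Ndrg1, a stress-response gene, was at 36.5, 36 and 35 with DMSO and 159, 121 and 169 CPM with adenosine. Ndrg1 rose by 1.87 log2 units (SE 0.15, adjusted p = 2.01e-06). Adm, the vasodilator adrenomedullin, went from 29.9, 35.4 and 26 CPM to 99.8, 94.8 and 98 CPM and rose by 1.49 ± 0.14 log2 units. Vegfa went from 9.33, 10.4 and 11.1 CPM to 34.1, 24.2 and 32.3 CPM and rose by 1.36 ± 0.2 log2 units. Other members went the other way or did not pass the test. Egln3, an oxygen-sensing hydroxylase, went from 21.5, 19.9 and 22.8 CPM to 13.7, 12.9 and 15 CPM and fell by 0.82 ± 0.19 log2 units. Bnip3, a mitophagy receptor, was at 21.4, 22 and 18.6 with DMSO and 21.9, 30.6 and 30.5 CPM with adenosine and was not called.

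The circadian clock, a loop in which CLOCK and BMAL1 (Arntl) drive the PER and CRY repressors and the REV-ERB receptors, held more rises than falls. Of 19 members, 11 rose, 2 fell and 6 were not called, at a median of 0.88, and 11 rose whichever single library was left out. Nr1d1, REV-ERB alpha, was at 36.7, 25.1 and 56.2 with DMSO and 203, 124 and 178 CPM with adenosine. Nr1d1 rose by 1.9 log2 units (SE 0.26, adjusted p = 1.27e-04). Per3 went from 11.8, 14 and 11.3 CPM to 54.4, 53.4 and 48.4 CPM and rose by 1.88 ± 0.16 log2 units. Per1 went from 12.9, 14.9 and 16.3 CPM to 39.6, 26.6 and 29.5 CPM and rose by 0.92 ± 0.2 log2 units. Dbp, a transcription factor of clock output, went from 5.05, 7.51 and 6.54 CPM to 19.1, 18.5 and 17.9 CPM and rose by 1.35 ± 0.23 log2 units. Nfil3, which opposes Dbp on the same sites, went from 22.6, 27.1 and 17.8 CPM to 13.3, 12.3 and 12.3 CPM and fell by 1.02 ± 0.2 log2 units. In Per3 and Dbp the 3 libraries of each group lay close together and far from the other group. The labels give 1 time point, so phase and level cannot be told apart.

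Myogenic identity genes were lowered, but not all of them. Of 38 regulators of satellite cells and myogenesis, 3 rose, 24 fell and 11 were not called, at a median of -0.66. Pitx3, a homeobox factor of the myoblast, was at 65.2, 62.5 and 73.6 with DMSO and 4.77, 5.16 and 5.44 CPM with adenosine. Pitx3 fell by 3.9 log2 units (SE 0.17, adjusted p = 1.09e-07), with no overlap between groups. Myod1 went from 2639.6, 2687 and 2879 CPM to 1389, 1171 and 944 CPM and fell by 1.42 ± 0.14 log2 units. Myf5 went from 206, 158 and 142 CPM to 119, 135 and 110.3 CPM and fell by 0.67 ± 0.14 log2 units. Myog, myogenin, which opens differentiation, went from 21.8, 14 and 7.46 CPM to 1.7, 4.47 and 0.118 CPM and fell by 2.98 ± 0.69 log2 units. Cdh2, N-cadherin, an adhesion molecule of the niche, went from 159, 139 and 98.6 CPM to 22.9, 30.1 and 17.1 CPM and fell by 2.69 ± 0.21 log2 units. Rises were few. Bmp4, a secreted growth factor, went from 18.9, 12.8 and 18.6 CPM to 69.5, 66.4 and 50.1 CPM and rose by 1.69 ± 0.2 log2 units. Eya1, a cofactor of homeobox factors, went from 16.4, 16.6 and 14.6 CPM to 34.9, 40.5 and 35.3 CPM and rose by 1.02 ± 0.16 log2 units. Sdc4, syndecan-4, a surface marker of satellite cells, went from 1302, 1208 and 1419.7 CPM to 2254, 2105 and 2146 CPM and rose by 0.53 ± 0.11 log2 units.

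Most of the called genes of the contractile fibre fell. Of 35 members 24 were tested, and the others, among them Ckm, Myh1, Myh2 and Tnnt3, were too low. Of the 24, 1 rose, 8 fell and 15 were not called (37.5% called, near the 39.2% of all genes). The median was -0.76 and lay between -1.2 without adenosine replicate 2 and -0.6 without adenosine replicate 3. Des, desmin, the muscle intermediate filament, was at 1056, 1122 and 909.9 with DMSO and 367, 362 and 265 CPM with adenosine. Des fell by 1.83 log2 units (SE 0.14, adjusted p = 2.01e-06). Ttn, titin, went from 117, 94 and 29.4 CPM to 9.13, 11.1 and 8.29 CPM and fell by 3.26 ± 0.38 log2 units, and DMSO replicate 3 was the lowest control. In the Notch pathway, which keeps satellite cells quiet through contact between neighbours, the ligands Dll1 and Jag2 fell. Dll1 went from 54.6, 49.3 and 43.8 CPM to 16.5, 13.5 and 11.4 CPM and fell by 2.03 ± 0.18 log2 units. Jag2 went from 19.5, 17 and 24.2 CPM to 4.36, 3.91 and 2.9 CPM and fell by 2.64 ± 0.26 log2 units. The target Heyl went from 36.8, 46.3 and 23.1 CPM to 13.9, 21.1 and 13.4 CPM and fell by 1.32 ± 0.25 log2 units. Hes1 was at 33.6, 52.8 and 48.2 with DMSO and 70.9, 68.5 and 55.2 CPM with adenosine, not called here but called at 0.53 under library totals. Over 20 members, 3 rose, 8 fell and 9 were not called, at a median of -0.14 that became 0.05 under library totals and lay between -0.21 without adenosine replicate 3 and -0.09 without adenosine replicate 1. In the Wnt pathway, of 21 members 5 rose, 7 fell and 9 were not called. The feedback target Axin2 went from 9.28, 9.5 and 9.93 CPM to 3.06, 3.11 and 2.96 CPM and fell by 1.85 ± 0.28 log2 units.

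The matrix and the actin cytoskeleton held large falls outside the cell cycle. Of 40 matrix genes, 4 rose, 16 fell and 20 were not called, at a median of -0.29. Bgn, the proteoglycan biglycan, was at 303, 337 and 140.3 with DMSO and 14.6, 23.6 and 5.86 CPM with adenosine. Bgn fell by 4.34 log2 units (SE 0.42, adjusted p = 9.35e-06). Col3a1, a fibrillar collagen, went from 473, 499 and 268 CPM to 45.2, 69.5 and 35.6 CPM and fell by 3.24 ± 0.26 log2 units. Tnc, tenascin C, an adhesive matrix protein of regenerating muscle, went from 209, 122 and 157 CPM to 28.6, 12.7 and 25.2 CPM and fell by 3.07 ± 0.27 log2 units. Col12a1, a collagen that binds other fibrils, went from 4.38, 6.51 and 1.67 CPM to 19.3, 30.9 and 18.2 CPM and rose by 2.26 ± 0.38 log2 units. Mmp2, a gelatinase, went from 80.9, 57.2 and 77.4 CPM to 187, 170.1 and 129 CPM and rose by 0.98 ± 0.17 log2 units.

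Genes shared by smooth-muscle-type contractile cells and targets of serum response factor and YAP fell in 15 of 28 members and rose in 4, at a median of -0.51. Acta2, smooth muscle actin, was at 559, 499 and 209 with DMSO and 35.9, 58.8 and 21.7 CPM with adenosine. Acta2 fell by 3.63 log2 units (SE 0.37, adjusted p = 1.51e-05). Tagln, an actin-binding protein, went from 133, 146 and 82.8 CPM to 10.1, 20.9 and 9.77 CPM and fell by 3.34 ± 0.29 log2 units. Myl9, a myosin light chain, went from 27.8, 16.7 and 16 CPM to 2.18, 3.11 and 1.6 CPM and fell by 3.33 ± 0.32 log2 units. The pericyte and smooth muscle markers given above summed to less in the same libraries, mostly through Notch3, while Cnn1 was higher. The part of such cells in these genes was not tested. Ctgf, a classical YAP target, went from 132, 134 and 105 CPM to 78.2, 65.7 and 68.4 CPM and fell by 1.0 ± 0.13 log2 units.

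Genes of antigen presentation and of the interferon response rose in 17 of 34 members and fell in 2, at a median of 0.69, with 0.37 by limma on log2(FPKM + 1), and at 10 CPM or more on average the counts were 11 and 2 of 20. B2m, the light chain of MHC class I, was at 182, 217 and 166 with DMSO and 499, 671 and 579 CPM with adenosine. B2m rose by 1.43 log2 units (SE 0.14, adjusted p = 7.69e-06). The heavy chain H2-K1 went from 335, 348 and 353 CPM to 1203, 1155 and 1033 CPM and rose by 1.52 ± 0.11 log2 units, but class I genes are near-copies of each other and reads can be shared. Isg15, a ubiquitin-like interferon product, rose but stayed low, at 0.0962, 0.665 and 0.123 with DMSO and 2.72, 3.17 and 2.96 CPM with adenosine. Ifit2, an interferon-induced RNA-binding protein, went from 21.7, 16.4 and 12.3 CPM to 6.54, 9.69 and 5.98 CPM and fell by 1.38 ± 0.27 log2 units. The interferon-induced members Ifit3, Oas1a, Oas1b, Oas2, Mx1, Mx2 and Ifitm1 were too low to be tested. Of 21 chemokines, cytokines and complement genes, 8 rose, 3 fell and 10 were not called. Cxcl1, a neutrophil attractant, went from 13, 13.1 and 20.9 CPM to 99.2, 51.8 and 89.5 CPM and rose by 2.16 ± 0.26 log2 units. Ccl7 went from 8.32, 13.8 and 16.9 CPM to 26.9, 59.3 and 52.1 CPM and rose by 1.63 ± 0.3 log2 units. Il34, a ligand of the CSF1 receptor, went from 35.9, 18.3 and 29.7 CPM to 6.27, 6.46 and 5.09 CPM and fell by 2.43 ± 0.27 log2 units. Cxcl12, a homing signal for muscle and blood progenitors, went from 147, 123 and 151 CPM to 76.8, 82 and 92 CPM and fell by 0.94 ± 0.13 log2 units. Ccl2 was at 16.9, 27.5 and 32.2 with DMSO and 27.2, 40.5 and 27.5 CPM with adenosine and was not called. Summed leukocyte markers were higher in the same libraries, as given above, and their part in these genes was not tested.

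Purine genes bear directly on the agent. Of 30 receptors, transporters and enzymes of extracellular and intracellular purine turnover, 6 rose, 11 fell and 13 were not called, and the median of -0.14 became 0.06 under library totals. With 1 library left out it lay between -0.3 without adenosine replicate 1 and -0.04 without adenosine replicate 3. Adora2b, an adenosine receptor that raises cyclic AMP, was at 7.5, 4.98 and 5.86 with DMSO and 0.136, 0.124 and 0.473 CPM with adenosine. Adora2b fell by 4.77 log2 units (SE 0.54, adjusted p = 3.21e-05). Slc29a1, the equilibrative nucleoside transporter, went from 180.4, 139.7 and 149.8 CPM to 88.9, 90.8 and 107 CPM and fell by 0.91 ± 0.13 log2 units. Adk, adenosine kinase, went from 102, 93 and 91.3 CPM to 45.6, 49.3 and 54.2 CPM and fell by 1.14 ± 0.13 log2 units. Ahcy, which releases adenosine from S-adenosylhomocysteine, went from 205, 155 and 166 CPM to 65.2, 86.9 and 79.2 CPM and fell by 1.38 ± 0.14 log2 units. In Adora2b, Slc29a1, Adk and Ahcy every adenosine library lay below every DMSO library. P2ry2, a receptor for ATP and UTP, went from 11, 14.6 and 11.7 CPM to 5.38, 6.77 and 4.79 CPM and fell by 1.33 ± 0.25 log2 units. The ATP-gated channel P2rx4 went from 29, 25.3 and 32.1 CPM to 63.5, 43.6 and 57.3 CPM and rose by 0.73 ± 0.18 log2 units. Enpp1, an ectoenzyme that cleaves nucleotides, went from 1.83, 1.6 and 0.247 CPM to 14, 13.9 and 17.2 CPM and rose by 3.4 ± 0.47 log2 units. Nt5e, CD73, which makes extracellular adenosine from AMP, stayed under 1 CPM in all 6 libraries.

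Synthesis of purines and pyrimidines held 4 rises and 9 falls among 26 genes, at a median of -0.12 that became 0.07 under library totals and lay between -0.17 without adenosine replicate 3 and -0.07 without DMSO replicate 1, and without DMSO replicate 1 the counts were 2 and 5. The rises also numbered 2 without DMSO replicate 2 and 2 without adenosine replicate 3. Prps1, which makes the ribose phosphate donor, was at 215, 169 and 164 with DMSO and 281, 390.3 and 364 CPM with adenosine. Prps1 rose by 0.72 log2 units (SE 0.14, adjusted p = 0.00182). Its paralog Prps2 went from 58.3, 45.9 and 44.7 CPM to 22.2, 37.8 and 30.4 CPM and fell by 0.92 ± 0.19 log2 units. Ppat, the first enzyme of the purine path, was at 118, 94.1 and 101 with DMSO and 92.3, 127 and 134 CPM with adenosine, and Gart, which acts next, was at 165, 161 and 147 with DMSO and 189, 173 and 171 CPM with adenosine. Neither was called. Paics, a later enzyme, went from 479, 408 and 339.98 CPM to 235, 309 and 324 CPM and fell by 0.69 ± 0.15 log2 units.

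Arginine metabolism carried large changes in both directions around Arg2. Of 25 genes of arginine and polyamine metabolism, 4 rose, 8 fell and 13 were not called, at a median of -0.11 that became 0.09 under library totals. With 1 library left out it lay between -0.21 without adenosine replicate 1 and -0.1 without DMSO replicate 3. Ass1, argininosuccinate synthase, which remakes arginine from citrulline, was at 273, 272 and 211 with DMSO and 24.9, 39.3 and 29.4 CPM with adenosine. Ass1 fell by 3.21 log2 units (SE 0.17, adjusted p = 2.80e-07), but it has pseudogenes that may share reads. Gatm, which uses arginine for creatine, went from 53.5, 47.1 and 27.1 CPM to 4.22, 6.46 and 3.37 CPM and fell by 3.37 ± 0.29 log2 units. Ddah2, which clears methylated arginines, went from 86.3, 68.9 and 82.3 CPM to 21.1, 17.2 and 15.7 CPM and fell by 2.33 ± 0.17 log2 units. The polyamine-degrading Sat1 went from 77.8, 66.4 and 61.4 CPM to 141, 159 and 202 CPM and rose by 1.09 ± 0.15 log2 units. Odc1, the first enzyme of polyamine synthesis, was at 335, 300.1 and 394 with DMSO and 358, 365 and 413 CPM with adenosine and was not called.

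Of 30 genes of cyclic AMP signalling and phosphodiesterases, 7 rose, 10 fell and 13 were not called, at a median of -0.28, or -0.17 at a mean of 10 CPM or more and -0.16 by limma on log2(FPKM + 1). The falls counted 5 under library totals and 6 without DMSO replicate 1. Crem, induced by cyclic AMP in many cells, was at 16.3, 13.2 and 11.9 with DMSO and 27.8, 23.7 and 30.8 CPM with adenosine and rose by 0.8 log2 units. Pde4b, a phosphodiesterase induced likewise, was at 86.9, 97 and 93.9 with DMSO and 146, 169.8 and 146 CPM with adenosine and rose by 0.54 log2 units. Rgs2, which dampens receptor signals, was at 1.68, 1.93 and 2.65 with DMSO and 9.6, 9.82 and 11.1 CPM with adenosine. Rgs2 rose by 2.09 log2 units (SE 0.32, adjusted p = 2.63e-04). Pde3b, a phosphodiesterase, went from 19.2, 20.3 and 11.9 CPM to 6.74, 6.34 and 6.16 CPM and fell by 1.61 ± 0.25 log2 units. Prkar2a, a regulatory subunit of protein kinase A, went from 89.2, 73.6 and 65.3 CPM to 33.7, 45 and 36.6 CPM and fell by 1.18 ± 0.16 log2 units.

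Long non-coding RNAs were higher more often than coding genes. Of 866 tested, 319 rose (36.8%) and 30 fell (3.46%), at a median of 0.92, against 2266 rises and 2567 falls among 11997 protein-coding genes at a median near 0. Malat1, a nuclear non-coding RNA, took 0.0551% to 0.077% of counts in the DMSO libraries and 0.0989% to 0.103% in the adenosine libraries. Signal over genes silent in muscle, given below, was higher in the same libraries, and its part in this difference was not tested. At 10 CPM or more in either group, 75 of 123 rose (61%) and 16 fell (13%), against 20.7% and 23.4% of 9060 coding genes. A gene low with DMSO can pass this cut through its adenosine level alone. The cut thus favours rises among genes low with DMSO, and the 61% does not describe RNAs well expressed in both groups. The counting used no strand, so reads of a non-coding RNA and of an overlapping gene cannot be told apart.

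The imprinted cluster on chromosome 12 held a run of adjacent genes that rose. Meg3, a maternally expressed non-coding RNA, was at 6.06, 3.99 and 4.38 with DMSO and 104, 71.4 and 85 CPM with adenosine. Meg3 rose by 3.97 log2 units (SE 0.21, adjusted p = 2.80e-07). Rian, which hosts small nucleolar RNAs, went from 1.97, 1.4 and 1.05 CPM to 33.9, 30.2 and 42.6 CPM and rose by 4.37 ± 0.27 log2 units. Meg3, Rian, Gm26945, Gm37899 and Mirg stood next to each other among tested genes on GRCm38, between positions 109541001 and 109749460 of chromosome 12, and all 5 were called higher; they were named after their values were seen. Other imprinted genes were split. Mest went from 19.1, 15.6 and 11.2 CPM to 76.9, 77.2 and 102 CPM and rose by 2.29 ± 0.2 log2 units. Grb10, an adaptor that dampens insulin signals, went from 203, 203 and 167 CPM to 102, 97.4 and 113 CPM and fell by 1.06 ± 0.12 log2 units. Ndn, necdin, went from 57.4, 46.1 and 47.1 CPM to 33.1, 33.7 and 27.1 CPM and fell by 0.88 ± 0.16 log2 units. Over 25 imprinted genes, 9 rose, 6 fell and 10 were not called.

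More genes gave counts with adenosine. At least 1 count was found for 18767, 18282 and 18804 genes with DMSO and for 24194, 23222 and 23391 genes with adenosine, without overlap, although the largest library was a DMSO library (exact permutation test, two-sided, p = 0.1, the smallest that 3 against 3 allows). Genes silent in muscle took part. The 1170 olfactory receptor genes, expressed in the nose, held 56, 76 and 59 counts with DMSO and 468, 442 and 560 with adenosine, or 0.00229, 0.0043 and 0.0031 against 0.0271, 0.0234 and 0.0282 CPM per kb of exon, a ratio of 8.12 between the means. The part of this low-level signal in single results was not tested, but its size can be set beside them. Of the genes called higher, 39 had an adenosine mean under 10 times the olfactory level. With the fit repeated on the 13137 genes at or over 10 times that level, a choice made after seeing the data, 5372 were called, 2695 higher and 2677 lower. A gene's level here was its mean over all 6 libraries, so a gene low with DMSO could stay in through its adenosine libraries. Most of the 13842 tested genes were kept, so this refit cannot show that the calls are free of the signal.

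**Figure D4:**
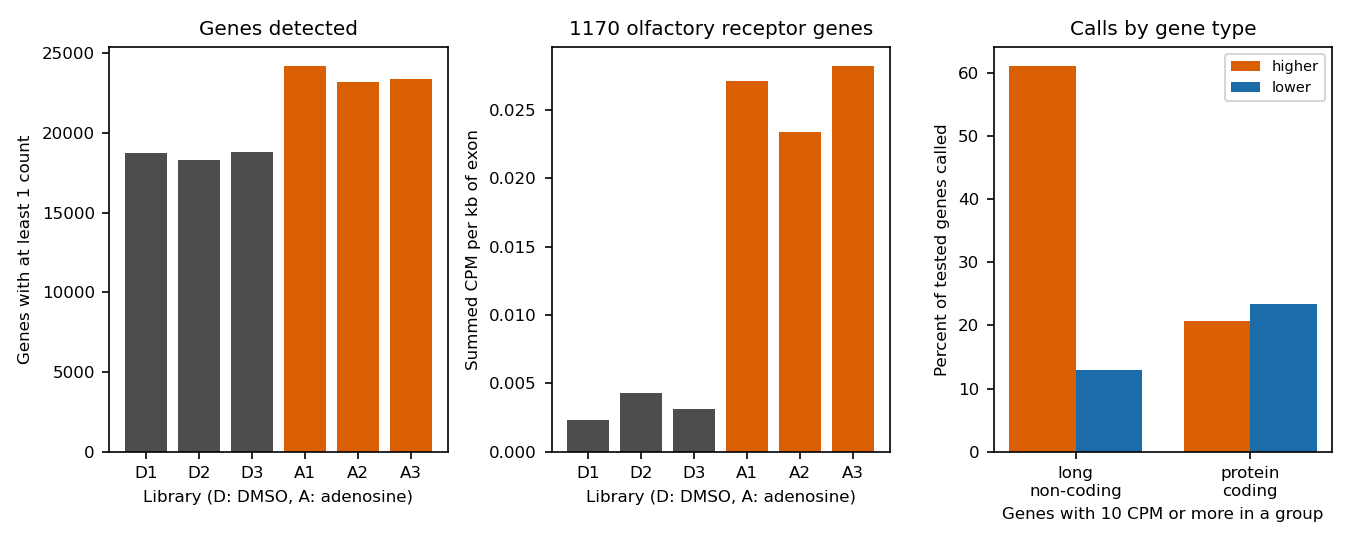
Genes with at least 1 count (left, y axis: genes), summed level of 1170 olfactory receptor genes (middle, y axis: CPM per kb of exon) in each of the 6 libraries (x axis), and percent of long non-coding and protein-coding genes at 10 CPM or more in a group that were called higher or lower (right, y axis: percent). The 3 adenosine libraries exceed the 3 DMSO libraries in both left panels, and 61% of long non-coding RNAs against 20.7% of coding genes were higher. A gene can reach 10 CPM through the adenosine group alone.

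The 20 genes with the largest changes were followed in batch 2, where 3 libraries with 0.1 mM adenosine stood against 3 with DMSO. Dose and batch change together there, so a difference between the effects belongs to both, and the genes were chosen on their batch 1 values. In a model with an interaction of treatment and batch, 1324 of 13037 genes (10.2%) had effects that differed at an adjusted p under 0.05, and of the 20 genes 3 were among them. Leaving out DMSO replicate 2 of batch 1 lowered the number of such genes to 861. Ppl changed by 3.9 in batch 1 and 5.11 in batch 2 on the log2 scale, a difference of 1.2 (SE 0.302, adjusted p = 0.0198). Fosb changed by 4.11 and 1.9, a difference of -2.22 (SE 0.48, adjusted p = 0.00983). Gsta1 changed by 7.08 and 3.33, a difference of -3.74 (SE 0.83, adjusted p = 0.0110). For the other 17 the difference was not called, which does not show that the effects were alike. By the fitted values all 10 falls were smaller in batch 2, with differences from 0.45 for H19 to 3.1 for Kif4. Kif4 changed by -6.82 and -3.68 (adjusted p of the difference = 0.0847) and Mki67 by -6.3 and -3.69 (adjusted p = 0.0564). The rises whose difference was not called went both ways. Across the 12521 genes with an effect in both batches, Pearson's r between the effects was 0.836 and Spearman's rho 0.818, a description across genes, which are not independent replicates. Of 5113 genes called in batch 1 with an effect in batch 2, 96.8% had the same sign there.

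**Figure D5:**
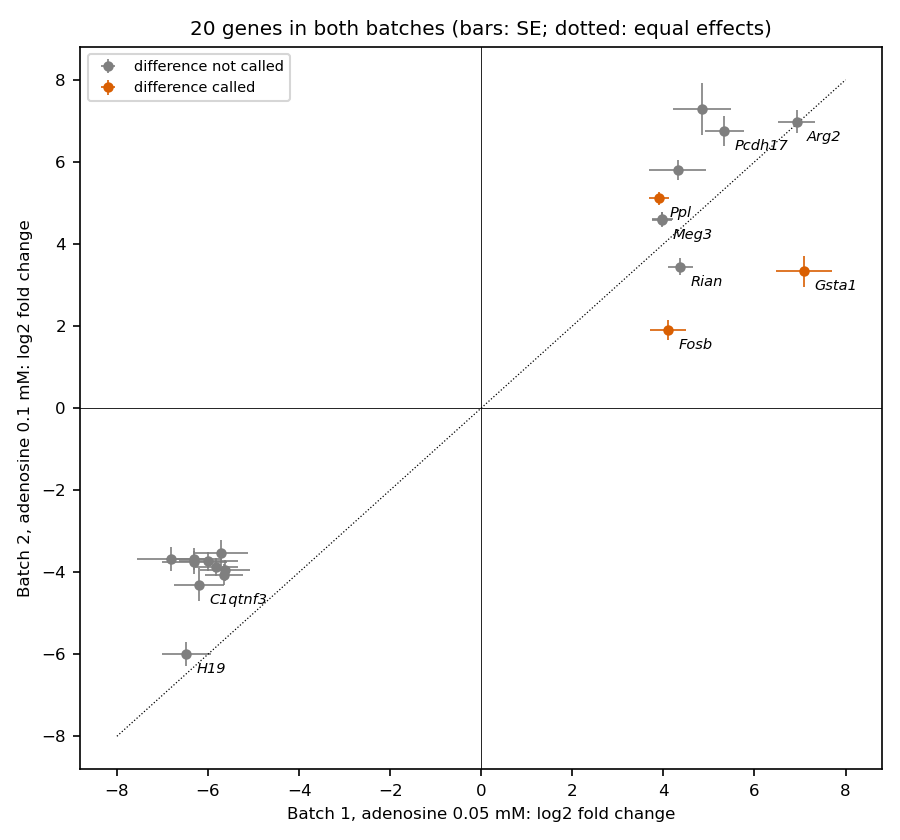
Log2 fold change of adenosine over DMSO in batch 1 (x axis, 0.05 mM) and batch 2 (y axis, 0.1 mM) for the 10 largest rises and 10 largest falls of batch 1, 1 point a gene, with the dotted line marking equal effects. All 20 have the same sign in both batches, and Gsta1 and Fosb lie farthest below the line among the rises while Ppl lies above it.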

How the data were processed

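RNA-seq was done on 6 libraries of satellite cells in batch 1, 3 with adenosine and 3 with DMSO. The deposited gene counts were made by the authors with featureCounts 1.6.4 in paired-end mode on exons of an Ensembl GRCm38 annotation with no strand option, per the file headers. Trim Galore, STAR, Subread, DESeq2 and the build mm10 are named per the submitters' processing notes, without settings. The authors also deposited FPKM values, the exon length of each gene, and a table of log2 fold changes with p-values.

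The counts were tested with edgeR 4.0.16 (R 4.3.3, two-sided quasi-likelihood F test, TMM scaling, filterByExpr by group), with adjusted p under 0.05 as the threshold and the 6 libraries of batch 1 only. Of 46078 genes, 30999 had a count and 13842 were tested. Batch 2 entered only the interaction model, over genes matched by symbol. Levels in CPM use library totals. Gene lists (43 of programmes, 8 of markers) are described by counts and medians, without set tests. The members and lists were chosen with earlier results of these data known. Genes named are, from the whole table, the 10 largest rises and 10 largest falls among called genes whose groups did not overlap and whose mean reached 10 CPM in either group, and from each list its leading members and up to 3 in each direction by the same criteria. Genes named outside this rule are marked as such. Promoter windows came from RefSeq (GRCm38.p6), the first listed window of each gene. Same-numbered replicates of the groups did not deviate together (correlations of -0.0261, 0.0876 and 0.0545), and nothing in the labels ties them, so they were not treated as pairs. Alternatives were library totals, DESeq2 1.42.0, other filters, limma 3.58.1 on log2(FPKM + 1), a replicate block, and leaving out each library of batch 1. Depth of 14683346 to 20799588 counts limits genes of a few counts, and amplification without molecular identifiers means that counts are not independent molecules.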

Additional observations from a re-analysis of the deposited data

Results flagged for a closer look

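For 3 of the 20 genes with the largest changes, the effect of adenosine differed between the batches by the test of the difference, with edgeR's interaction term over 13037 genes. The difference, batch 2 minus batch 1 on the log2 scale, was 1.2 for Ppl, -2.22 for Fosb and -3.74 for Gsta1. Dose and batch cannot be told apart there. Each was called under all 10 alternatives that were run. With 1 library of batch 1 left out, the difference was 0.909 to 1.365 for Ppl, -2.75 to -1.838 for Fosb and -5 to -3.063 for Gsta1. No library of batch 2 was left out.

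A signal stood outside the main measurement. Olfactory receptor genes reached a mean of 0.02623 CPM per kb of exon in the adenosine libraries and 0.003228 in the DMSO libraries. The 295 vomeronasal receptor genes held 37, 47 and 45 counts with DMSO and 108, 157 and 233 counts with adenosine. The part of this signal in other results was not tested.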

How the results depend on the processing

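The number of genes called, 5420, stayed within 1.5 times under each alternative: 5967 with library totals, 5670 with DESeq2, 5628 with no filter beyond 1 count, 3973 of 8830 at a mean of at least 10 CPM, 5385 with limma on log2(FPKM + 1), 5004 with a replicate block, 5372 with the filter on the olfactory level added after seeing the data, and 4349 to 4929 with 1 library left out. Of the calls that could be tested under each setting, 77.7% to 99.9% were kept. The replicate block, 2475 higher and 2529 lower, rests on shared numbers only, since same-numbered samples did not deviate together, and it changed no call of a gene named as called. The number of genes whose effect differed between batches was 1324. With 1 library of batch 1 left out it lay between 861 (without DMSO replicate 2) and 1881, and no library of batch 2 was left out. It was 1731 with DESeq2, 1254 with library totals, 1169 with a replicate block and 1555 with all 15 libraries in the fit. The cause of the fall to 861 was not tested. Under library totals the medians of 9 of 43 lists changed sign: oxidative phosphorylation to 0.153, imprinted genes to 0.07913, ribosome biogenesis to 0.08541, fatty acid oxidation to 0.05705, Notch to 0.0537, small nucleolar RNA hosts to 0.04379, purine receptors and turnover to 0.05766, purine and pyrimidine synthesis to 0.07492 and arginine and polyamines to 0.08753. That setting removes the TMM factors (0.917 to 0.947 for DMSO, 1.056 to 1.079 for adenosine), and the change follows from its construction. No named gene that was called changed sign. Of named genes that were not called, Ccl2, Fbl, Gart, Odc1, Pax7, Ppat, Rplp0, Sesn1 and Sesn2 changed sign under library totals, another filter or with 1 library left out, so no direction is given for them. With limma on log2(FPKM + 1) medians lay closer to 0 in lists with low genes, as for mitosis (-1.901), interferon (0.3665) and chemokines (0.28). Genes near the threshold at under about 1 CPM are limited by depth.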

Other observations

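These genes were chosen after their values were seen. Il11, which encodes a cytokine of the interleukin-6 family, was almost absent from the DMSO libraries and was at 0.0481, 0.0665 and 0.123 with DMSO and 12, 6.65 and 8.94 CPM with adenosine. Il11 rose by 6.58 log2 units (SE 0.55, adjusted p = 3.26e-06). Adjacent chemokine genes on chromosome 5 rose with Cxcl1. Cxcl2 went from 0.433, 0.332 and 0.432 CPM to 11.9, 2.11 and 4.2 CPM and rose by 3.7 ± 0.66 log2 units. Cxcl3 went from 0.817, 0.0665 and 1.11 CPM to 6.54, 3.98 and 6.87 CPM and rose by 2.89 ± 0.62 log2 units. Adenosine replicate 1 was the highest library for Cxcl2.

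The longest run of adjacent tested genes called in 1 direction and changed over 2-fold held 6 predicted genes at the start of chromosome 9. It lay between positions 3000282 and 3038313 of GRCm38, next to the centromere. All 6 rose. Gm26870 was at 1.3, 7.64 and 1.48 with DMSO and 23.2, 30.9 and 27 CPM with adenosine. Gm26870 rose by 2.8 log2 units (SE 0.51, adjusted p = 9.19e-04). Gm10718 went from 0.577, 2.13 and 0.678 CPM to 7.76, 10.4 and 11.2 CPM and rose by 2.96 ± 0.47 log2 units. DMSO replicate 2 was the highest control for both, and neighbouring predicted genes of this kind resemble each other, so reads may be shared among them. Of 446 tested genes on chromosome X, 57 rose (12.8%) and 107 fell (24%), against 19.6% and 19.5% of all tested genes. On that chromosome Tsix, Xist, Jpx and Gm9785, adjacent among tested genes, were all called higher by over 2-fold. Other runs on it were called lower, among them Acsl4, Tmem164, Ammecr1, Chrdl1 and Pak3.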
